A study of Homo sapiens with 2 samples.

Results

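The long-arm stretch of human chromosome 19 between 29 and 46 Mb (build GRCh38, hg38) held 426 of the 28695 broad peaks called for histone H3 lactylated at lysine 18 (H3K18la) in H1299 cells. H1299 is an established line of human non-small cell lung carcinoma cells. A peak belonged to the stretch when its start lay from 29 Mb to below 46 Mb, and the other 1056 peaks of chromosome 19 were the group set against it, 711 of them below the stretch and 345 above it. The stretch was selected on the fold and −log10 p of this same list, whose relation had stood out there, so fold, significance and the background derived from them are given as descriptions. The study has 2 libraries of H1299 chromatin, 1 precipitated with anti-H3K18la and 1 labelled input. The values come from the anti-H3K18la peak calls, with no second library of either kind. No p-value is therefore given for any difference, and the binomial intervals (95%, exact) cover counting error only.

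Lactylation is the attachment of a lactate-derived group to lysine. On histones it was described as a mark that follows the cell's lactate supply, and H3K18la is known to lie mostly at promoters and enhancers of active genes. The long arm of chromosome 19 is rich in genes that arose by tandem duplication. Among them are arrays of KRAB zinc finger repressors, which silence transposable elements, the carcinoembryonic antigen adhesion molecules (CEACAM) with the pregnancy-specific glycoproteins (PSG), drug-metabolising cytochromes P450 and the lambda interferons. Between these arrays lie broadly expressed genes for splicing, protein turnover and growth signalling.

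The promoters below show both ends of what the stretch holds. They are RefSeq promoter windows of GRCh38.p14, each 300 bases long, from 250 bases before to 50 bases after a transcription start, printed 5′ to 3′ on the gene's strand with every CpG dinucleotide in capitals. HNRNPL (chr19:38849937-38850236, minus strand), HNRNPUL1 (chr19:41264122-41264421, plus strand), DMWD (chr19:45792796-45793095, minus strand) and ERF (chr19:42255079-42255378, minus strand) lie at 4 of the strongest peaks of the stretch. The HNRNPL window belongs to a start 2361 bp from the outer 5′ end of the gene, and the HNRNPUL1 window to one 1815 bp from it. AXL (chr19:41218973-41219272, plus strand) lies at the second widest peak, and SYMPK (chr19:45863098-45863397, minus strand) lies beyond the step in background described further on.
HNRNPL: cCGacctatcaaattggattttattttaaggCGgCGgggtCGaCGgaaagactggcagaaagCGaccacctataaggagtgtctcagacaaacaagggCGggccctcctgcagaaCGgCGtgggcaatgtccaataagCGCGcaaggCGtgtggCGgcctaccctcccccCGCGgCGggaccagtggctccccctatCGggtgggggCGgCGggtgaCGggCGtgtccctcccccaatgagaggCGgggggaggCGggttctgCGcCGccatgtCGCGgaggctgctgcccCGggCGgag
HNRNPUL1: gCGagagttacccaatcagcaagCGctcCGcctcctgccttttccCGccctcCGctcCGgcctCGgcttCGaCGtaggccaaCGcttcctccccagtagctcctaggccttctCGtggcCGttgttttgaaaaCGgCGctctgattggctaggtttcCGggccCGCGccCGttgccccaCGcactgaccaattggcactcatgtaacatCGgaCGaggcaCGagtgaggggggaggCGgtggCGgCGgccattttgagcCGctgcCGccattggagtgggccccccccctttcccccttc
DMWD: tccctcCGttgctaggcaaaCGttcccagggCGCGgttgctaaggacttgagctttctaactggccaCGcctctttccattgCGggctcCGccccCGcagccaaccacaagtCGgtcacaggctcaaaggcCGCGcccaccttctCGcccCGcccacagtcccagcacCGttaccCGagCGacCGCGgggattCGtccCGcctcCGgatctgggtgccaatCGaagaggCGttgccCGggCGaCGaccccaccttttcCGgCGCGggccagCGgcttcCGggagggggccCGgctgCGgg
ERF: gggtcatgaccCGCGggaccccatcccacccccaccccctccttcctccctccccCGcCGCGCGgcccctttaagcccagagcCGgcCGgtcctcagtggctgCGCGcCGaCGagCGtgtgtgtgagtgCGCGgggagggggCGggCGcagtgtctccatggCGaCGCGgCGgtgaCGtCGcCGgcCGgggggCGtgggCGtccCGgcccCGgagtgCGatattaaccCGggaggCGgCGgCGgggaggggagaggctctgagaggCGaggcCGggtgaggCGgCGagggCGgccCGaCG
AXL: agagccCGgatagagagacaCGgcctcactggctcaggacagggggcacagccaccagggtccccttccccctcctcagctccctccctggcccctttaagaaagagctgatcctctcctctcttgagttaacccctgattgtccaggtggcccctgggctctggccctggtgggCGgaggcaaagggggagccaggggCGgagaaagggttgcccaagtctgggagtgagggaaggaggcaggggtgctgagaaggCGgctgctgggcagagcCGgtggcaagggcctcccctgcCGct
SYMPK: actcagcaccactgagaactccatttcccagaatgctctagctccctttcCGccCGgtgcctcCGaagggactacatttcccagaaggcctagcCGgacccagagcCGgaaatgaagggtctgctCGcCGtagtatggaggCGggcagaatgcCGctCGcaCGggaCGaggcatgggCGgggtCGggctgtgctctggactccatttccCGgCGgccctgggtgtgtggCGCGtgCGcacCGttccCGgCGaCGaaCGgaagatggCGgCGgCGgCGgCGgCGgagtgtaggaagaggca

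The next 3 windows belong to tandem families without a peak at these starts. CEACAM5 (chr19:41708376-41708675, plus strand) encodes carcinoembryonic antigen, CYP2A6 (chr19:40850398-40850697, minus strand) the nicotine-oxidising P450, and LGALS13 (chr19:39602274-39602573, plus strand) a placental galectin.
CEACAM5: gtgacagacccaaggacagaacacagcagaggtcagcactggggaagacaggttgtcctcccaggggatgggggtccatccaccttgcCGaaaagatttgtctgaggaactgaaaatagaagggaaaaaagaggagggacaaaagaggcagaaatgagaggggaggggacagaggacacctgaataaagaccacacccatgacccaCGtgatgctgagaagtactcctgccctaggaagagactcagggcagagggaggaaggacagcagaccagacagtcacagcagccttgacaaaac
CYP2A6: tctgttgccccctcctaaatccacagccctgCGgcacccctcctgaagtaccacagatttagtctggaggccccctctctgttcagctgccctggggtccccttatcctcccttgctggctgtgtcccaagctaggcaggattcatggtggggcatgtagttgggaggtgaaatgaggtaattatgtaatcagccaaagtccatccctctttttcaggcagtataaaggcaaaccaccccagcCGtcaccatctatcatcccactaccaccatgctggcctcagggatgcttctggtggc
LGALS13: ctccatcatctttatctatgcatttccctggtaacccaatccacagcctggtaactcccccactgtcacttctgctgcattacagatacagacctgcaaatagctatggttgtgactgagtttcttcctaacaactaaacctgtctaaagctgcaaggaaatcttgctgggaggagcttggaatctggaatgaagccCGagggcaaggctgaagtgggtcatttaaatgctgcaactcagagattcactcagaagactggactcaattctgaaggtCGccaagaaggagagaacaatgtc

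The capitals differ plainly between the sets. The windows of HNRNPL, HNRNPUL1, DMWD, ERF and SYMPK held 29, 27, 33, 41 and 30 CpG dinucleotides. AXL held 7 under a peak of 8.94-fold, and CEACAM5, CYP2A6 and LGALS13 held 2 each.

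Peaks of the stretch were wider than those of the rest of chromosome 19, had a lower fold and yet had a higher significance. Fold enrichment, the deposited ratio of the precipitated library to the caller's local background, had a median of 4.11 in the stretch (95% interval of the median 3.89 to 4.37, quartiles 3.01 and 5.79) and 4.92 in the rest (4.77 to 5.06, quartiles 3.84 and 6.42). The deposited −log10 p had a median of 15.9 in the stretch and 12.2 in the rest. Peak width had a median of 1404 bp in the stretch (1293 to 1534, quartiles 829.8 and 2037) and 1168 bp in the rest (1115 to 1223, quartiles 698.2 and 1734). The ranges of fold and width overlapped widely. Folds ran from 2.13 to 16.1 in the stretch and from 2.46 to 19.1 in the rest, and widths from 288 to 14349 bp in the stretch and from 288 to 23204 bp in the rest.

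The number of peaks did not set the stretch apart. It had 25.1 peaks per Mb, against 25.4 in the rest, where the side below had 24.5 and the side above 27.4. Peaks covered 4.37% of its bases, against 3.68% of the rest. There were 1.16 peaks per protein-coding gene in the stretch and 1.01 in the rest, with 368 and 1042 such genes. The side below had 1.17 peaks per gene, like the stretch, and the side above 0.793.

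Low folds were more frequent in the stretch. Folds under 2.5 were found in 40 of the 426 peaks of the stretch (9.39%, interval 6.79 to 12.6) and in 2 of the 1056 peaks of the rest (0.189%, interval 0.0229 to 0.682), where the share among all listed peaks of the genome was 0.467%. Of the stretch's peaks, 26 had a fold below the lowest fold found elsewhere on the chromosome. At the strong end the intervals of the groups overlapped. Folds of 10 or more were found in 17 peaks of the stretch (3.99%, interval 2.34 to 6.31) and in 48 of the rest (4.55%, interval 3.37 to 5.98), against 2.93% of all listed peaks. A width of at least 5000 bp was reached by 17 peaks of the stretch (3.99%, interval 2.34 to 6.31) and by 20 of the rest (1.89%, interval 1.16 to 2.91), against 2.42% of all listed peaks. The side below the stretch had 17 such wide peaks (2.39%, interval 1.40 to 3.80) and the side above 3 (0.870%). For width too the intervals of stretch and rest overlapped, and that of the stretch includes the share of all listed peaks.

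High significance was common in the stretch. A −log10 q of at least 50 was found in 61 peaks of the stretch (14.3%, interval 11.1 to 18.01) and in 27 of the rest (2.56%, interval 1.69 to 3.70), where 1.59% of all listed peaks reached it. The highest −log10 q was 176.2 in the stretch and 116.5 in the rest, and 4 peaks of the stretch exceeded that of the rest.

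Set beside peaks of like fold, the significance was higher in the stretch, and clearly so from 3-fold on. Between 3-fold and 4-fold, the 99 peaks of the stretch had a median −log10 p of 11.2 (quartiles 8.89 and 13.1), against 6.23 (5.53 and 7.49) in the 263 peaks of the rest. Between 5-fold and 6-fold the medians were 28.2 in the stretch and 15.1 in the rest, with quartiles of 24.7 and 32.8 against 12.8 and 17.96. Between 8-fold and 9-fold they were 63.5 in the stretch and 33.4 in the rest, and between 10-fold and 11-fold 85.2 and 46.1. The quartile ranges did not overlap in any of these 4 classes. They did between 2-fold and 3-fold, where the difference was smaller. There the 105 peaks of the stretch had a median of 5.43 (quartiles 4.60 and 6.37), against 4.24 (3.86 and 4.67) in the 50 peaks of the rest. Width differed too at like fold in the lower classes. It had a median of 1290 bp in the stretch and 801 bp in the rest between 3-fold and 4-fold, and of 1583 bp and 1102 bp between 4-fold and 5-fold. Between 8-fold and 9-fold the order was the other way round, with 1704 bp in the stretch and 2177 bp in the rest.

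**Figure D1:**
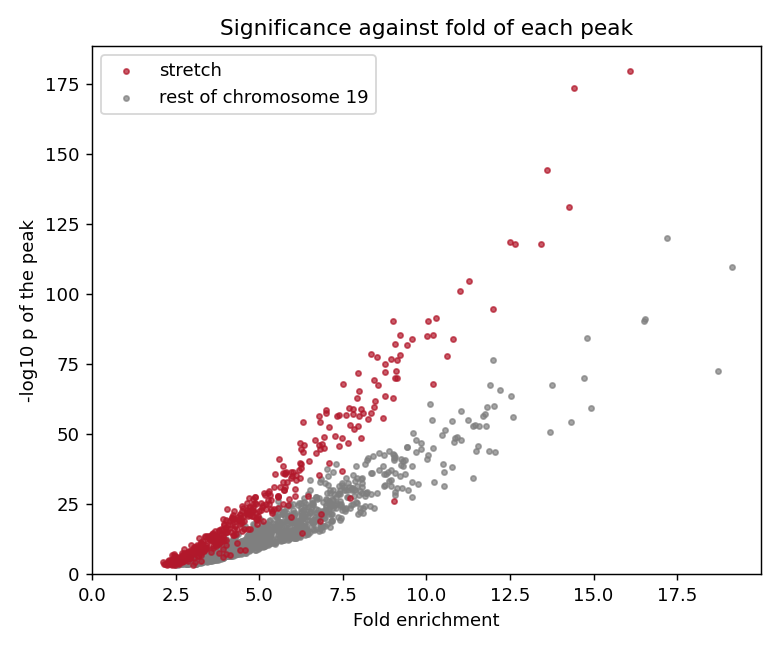
Deposited −log10 p (vertical axis) against deposited fold enrichment (horizontal axis) of each peak of chromosome 19, with 426 peaks of the stretch and 1056 peaks of the rest as points. From 3-fold on, the points of the stretch mostly lie higher at like fold, with a median −log10 p of 28.2 against 15.1 between 5-fold and 6-fold.

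The same property was written as a background level. The caller's p follows a Poisson distribution around a local background and its fold is the ratio of the pileup to that background, with 1 unit added to each, so the background that gives both deposited values of a peak can be solved for. Its unit is reads as the caller scaled them, averaged over a peak, and it is an effective value. The solved background had a median of 11.1 in the stretch (interval 10.8 to 11.6, quartiles 9.32 and 12.8) and 4.99 in the rest (interval 4.87 to 5.13, quartiles 4.0004 and 6.03). It was 5.60 on the side below the stretch and 3.68 on the side above. Of the stretch's peaks, 395 of 426 (92.7%) exceeded the rest's 90th percentile of 7.05, and 1 of the 1056 peaks of the rest exceeded the stretch's median. These counts come from the values on which the stretch was drawn, and the source of the raised background was not tested.

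Along the chromosome the background of nearly all bins of the stretch lay above that of the bins around it. The stretch has 17 bins of 1 Mb, of which 16 held peaks. In 15 of these the median background lay between 9.62 and 12.5, and the bin from 31 to 32 Mb, with 2 peaks in and near TSHZ3, a developmental zinc finger factor, stood at 6.11. In the rest, 39 of 40 bins with peaks had medians from 3.12 to 6.95, and the bin from 27 to 28 Mb, with 1 peak, had 10.9. The 13 bins above the stretch all lay between 3.12 and 4.15.

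**Figure D2:**
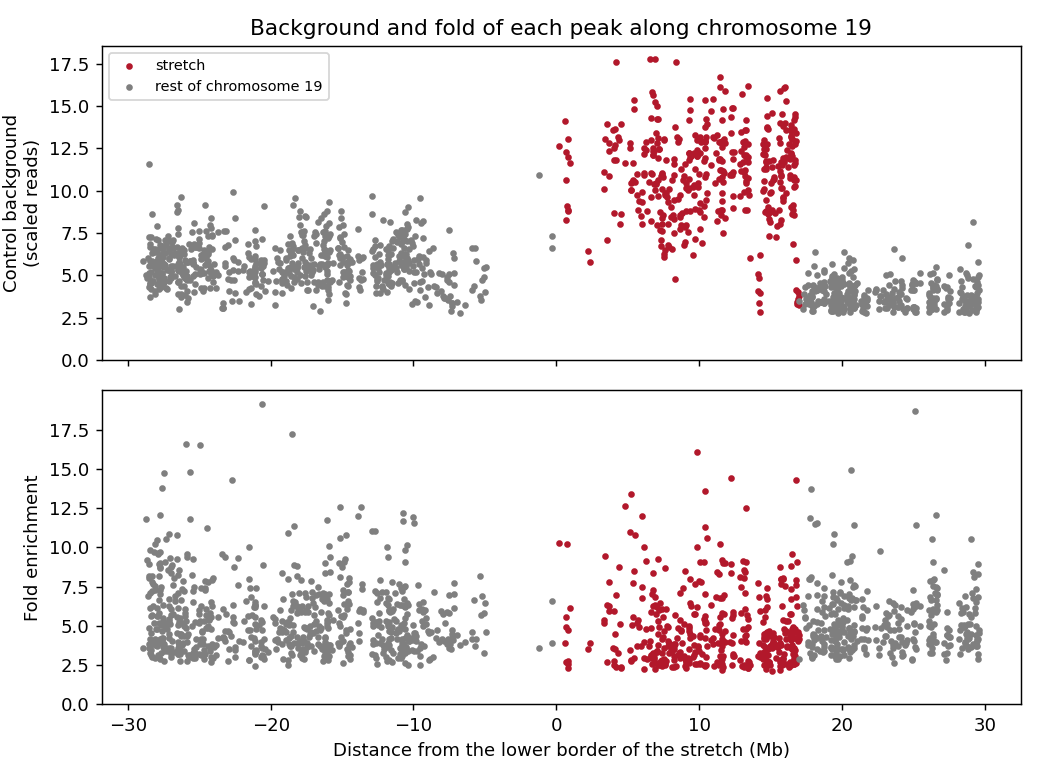
Solved background (upper panel) and deposited fold (lower panel) of each peak of chromosome 19 against the distance in Mb from the lower border of the stretch. Background in the stretch has a median of 11.1, against 4.99 in the rest, and drops just inside the upper border, while the folds of both groups overlap.

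At the lower border the first peak inside was the start of UQCRFS1, the Rieske iron-sulphur protein of respiratory complex III, at chr19:29212389-29213486, with 10.3-fold and a background of 12.6. The last peak outside, chr19:28726961-28727757, had 6.57-fold and a background of 6.61, and those peaks are separated by a region with few genes. The next peak inside, at POP4, a subunit of RNase P, had a background of 14.1. At the upper border the last peak inside lay at the start of CCDC61, a centriole protein, at chr19:45995518-45995853, with 4.43-fold and a background of 3.76. The first peak outside, chr19:46016218-46016505, lay within the same gene with 2.89-fold and a background of 3.50. The upper border thus lay where the background was already low on both of its sides.

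The step itself lay inside the stretch. The last peak before it was at the start of DMWD, which encodes a WD-repeat protein next to the myotonic dystrophy kinase gene, at chr19:45791979-45792856, with 14.3-fold and a background of 10.7. The next peak began 13405 bp further on in RSPH6A, a sperm flagellum gene, at chr19:45806262-45807001, with 2.60-fold and a background of 5.92, and the one after it had 4.11. SYMPK, a scaffold of the 3′-end processing machinery, followed at chr19:45862441-45863112 with 9.04-fold and a background of 3.29. SYMPK and RSPH6A are named because of this step, after their values were seen. The step was placed at the first peak of the last series of neighbouring stretch peaks with a background under 7.05. Lower backgrounds after it thus follow in part from how it was placed. The 10 peaks from the step on had a median background of 3.56 (2.99 to 5.92), against 12.3 (8.53 to 14.5) in the 10 peaks before it. Their median fold was 4.504 after the step and 4.43 before it, while median −log10 p was 8.65 and 21.3 and median width 686.5 and 1533 bp. Thus 418 peaks of the stretch lay before the step and 8 after it. With the upper border moved to the step, no median or share of the stretch left its interval. Only these 8 peaks were dropped, so little change was possible and this says nothing on how firm the values are.

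CIC, the capicua repressor of growth-factor target genes, lay well before the step and had nearly the fold of SYMPK. Its peak had 9.05-fold with a −log10 q of 79.2, and that of SYMPK 9.04-fold with a −log10 q of 23.7. The pair was chosen after its values were seen, and at equal fold a lower significance and a lower solved background are the same fact.

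**Figure D3:**
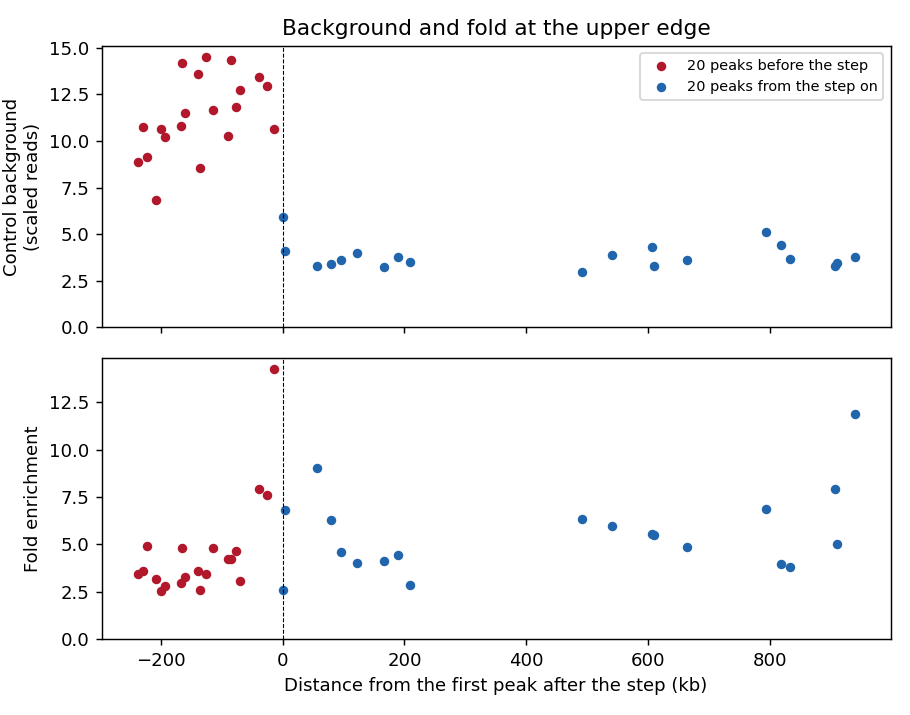
Solved background (upper panel) and deposited fold (lower panel) of the 20 peaks before and the 20 peaks from the step on, against the distance in kb from the first peak after it. Background is 6.85 or higher before the step and 5.92 or lower after it, while folds of both sets overlap. The step was itself placed by background.

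Inside the stretch, 31 peaks had a background at or below the rest's 90th percentile. They fell into 15 runs of neighbours, and 2 runs held at least 3 peaks, both of them 8. One was the run after the step. The other reached from CEACAM1, an adhesion molecule, to the PSG genes, which encode placental secreted glycoproteins, at chr19:42528324-43270627, with backgrounds from 2.85 to 6.22 (median 4.44) and folds from 2.47 to 7.71. Its 7 peaks in the PSG array lay between 43110378 and 43270627, among them peaks of 6.85-fold inside PSG5 and of 5.94-fold inside PSG9. The PSG genes are near-identical copies, and how reads that match several of them were placed was not examined.

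A protein-coding gene counted as having a peak when a peak overlapped the 1000 bp on either side of its start, or of either end where no start was given (45 genes of the stretch). In the stretch 246 of 368 genes had one (66.8%, interval 61.8 to 71.6), and in the rest 663 of 1042 (63.6%, interval 60.6 to 66.6), where the share of all protein-coding genes of the genome was 59.9%. The intervals overlapped. The rest was uneven, with 70.5% below the stretch and 54.0% above it, so that the stretch lay between its 2 sides. A gene without a peak is one without a peak in this list, and the depth of the libraries is unknown.

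By position, 228 peaks of the stretch lay at gene starts (53.5%, interval 48.7 to 58.3), against 642 of the rest (60.8%, interval 57.8 to 63.8). Inside genes lay 127 peaks of the stretch (29.8%) and 258 of the rest (24.4%), and between genes 71 (16.7%) and 156 (14.8%). The greater width of the stretch was clearest in start peaks, whose median was 1554 bp in the stretch and 1202 bp in the rest. Peaks between genes had medians of 1159 bp in the stretch and 1163 bp in the rest. The lower fold was seen in all 3 places, with 4.90 in the stretch and 5.32 in the rest at starts, 3.22 and 4.06 inside genes, and 3.17 and 4.11 between genes. Background was higher in all 3 too, with 12.02 in the stretch and 5.14 in the rest at starts, 10.04 and 4.71 inside genes, and 10.2 and 4.94 between genes. Among genes with 1 annotated start, the peak covered the start base in 130 of 152 genes of the stretch (85.5%) and in 320 of 426 of the rest (75.1%).

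The 2 strongest peaks of the stretch stood at genes for RNA-binding proteins. HNRNPL, a nuclear ribonucleoprotein that regulates alternative splicing, had the highest fold, 16.1, in a peak of 1567 bp at chr19:38848521-38850087 with a −log10 q of 176.2. HNRNPUL1, another RNA-binding protein, with a part in the DNA damage response, came next with 14.4-fold at chr19:41264289-41266294 and a −log10 q of 169.8. LSM14A, a component of cytoplasmic processing bodies, had 10.99-fold, U2AF1L4, a splice-site recognition factor, 8.35-fold, SNRPA, the U1 small nuclear ribonucleoprotein A, 5.73-fold and POP4 3.93-fold. Of the 13 listed genes 12 had a peak (92.3%, interval 64.0 to 99.8), against 66.8% of all protein-coding genes of the stretch, with folds from 3.15 to 16.1 and a median of 5.26. The exception was CNFN, which encodes a protein of the epidermal cornified envelope and has no known part in RNA processing, so that it stood in this list by error. It had a peak inside the gene. The members of this and all later gene lists were chosen with earlier results of these data known. Their shares and intervals therefore describe the lists and cannot show enrichment.

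Of 20 growth and cell cycle genes, 17 had a peak (85.0%, interval 62.1 to 96.8), with a median of 6.82-fold. The interval includes the 66.8% of all protein-coding genes of the stretch. ERF, an ETS-domain repressor downstream of ERK signalling, had 12.5-fold over 4531 bp at chr19:42251977-42256507. SERTAD1, a CDK4-binding protein, had 10.2-fold, EGLN2, a prolyl hydroxylase of hypoxia-inducible factor, 8.99-fold, AKT2, a serine kinase of insulin and growth factor signalling, 8.43-fold and PAK4, a kinase of the actin cytoskeleton, 7.79-fold. CCNE1, the G1/S cyclin E1, had 4.70-fold at chr19:29810913-29812640 and its neighbour URI1, a prefoldin-like chaperone, 6.10-fold. TGFB1, the transforming growth factor, had 5.70-fold. CCNP, HIPK4 and RASGRP4 had no peak.

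Other strong peaks lay at genes of varied function. Of those named here, GARRE1, KCTD15 and FXYD7 had no annotated start and were placed by either end. GARRE1, a Rac effector, had 13.4-fold at chr19:34254030-34255463, KCTD15, an inhibitor of neural crest formation in vertebrate embryos, 12.6-fold, and GRAMD1A, a cholesterol transfer protein, 12.002-fold. WTIP, a LIM-domain protein, had 10.8-fold, C19orf12, a mitochondrial membrane protein, 10.2-fold, DPY19L3, a protein C-mannosyltransferase, 9.43-fold, and CAPNS1, the small calpain subunit, 9.22-fold. The peak of 10.03-fold between FXYD7 and FXYD5, regulators of the sodium pump, was shared by both genes, while FXYD1 and FXYD3 had only peaks inside the gene. A peak of 13.6-fold and 3434 bp at chr19:39401564-39404997 lay between genes, 923 bp from the nearest one, and was the fourth strongest of the stretch.

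The NF-κB pathway, which carries inflammatory signals to the nucleus, had a peak at each of its 4 listed genes. BCL3, an atypical IκB protein that acts as a coactivator, had 7.99-fold, RELB, a subunit of the non-canonical pathway, 7.52-fold, NFKBID, a nuclear IκB protein, 6.81-fold and NFKBIB, a cytoplasmic inhibitor, 3.63-fold. With 4 members the interval of this share was 39.8 to 100%, which includes the 66.8% of all protein-coding genes of the stretch.

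Among 20 genes of the cell surface, adhesion and the matrix, 14 had a peak (70.0%, interval 45.7 to 88.1), near the 66.8% of all protein-coding genes of the stretch. Their median was 6.01-fold. VASP, an actin filament elongation factor, had 9.58-fold, AXL, a receptor tyrosine kinase, 8.94-fold, PVR, the poliovirus receptor and a ligand of immune cells, 8.77-fold, NECTIN2, its adhesion relative, 7.99-fold and PLAUR, the urokinase receptor, 6.89-fold. CD177, HPN, LTBP4, NPHS1, SPINT2 and TMEM145 had none, although LTBP4, SPINT2 and TMEM145 held a peak inside the gene. NPHS1 encodes the kidney slit protein nephrin and CD177 a neutrophil antigen.

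Of 24 transcription and chromatin genes, 21 had a peak (87.5%, interval 67.6 to 97.3), against 66.8% of all protein-coding genes of the stretch. The lower end of the interval lay close to that share. Their median was 5.16-fold. ERF and CIC were also in the growth and cell cycle list, and ZNF146 was also among the zinc finger genes. USF2, an E-box binding factor, had 9.11-fold, CEBPG, a bZIP factor, 8.77-fold, GSK3A, a glycogen synthase kinase, 8.42-fold, SIX5, a homeobox factor, 7.91-fold and KMT2B, a histone H3 lysine 4 methyltransferase, 6.99-fold. CEBPA, a differentiation factor of liver, fat and myeloid cells, had 3.26-fold. FOXA3, POU2F2 and ZBTB32 had none at the start, but peaks of up to 8.56-fold lay within POU2F2, and ZBTB32 overlapped the peak of KMT2B at 6.99-fold.

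Of 19 genes of the ribosome, mitochondria and metabolism, 17 had a peak (89.5%, interval 66.9 to 98.7), where all protein-coding genes of the stretch had 66.8%. Their median was 4.73-fold, led by UQCRFS1, then RPS19, a small-subunit ribosomal protein, with 8.11-fold and GPI, the glycolytic glucose phosphate isomerase, with 7.73-fold. COX7A1, a muscle form of a cytochrome oxidase subunit, and GAPDHS, the sperm form of a glycolytic enzyme, had none at the start. All 12 listed genes of the proteasome, ubiquitin pathway and sorting had one (interval 73.5 to 100%). UBA2, a SUMO-activating subunit, had 8.52-fold and PSMD8, a proteasome subunit, 6.48-fold. The highest fold of this list, 10.6, was at EID2, an inhibitor of differentiation that lies outside these functions. All 6 listed genes of DNA repair and damage responses had a peak (interval 54.1 to 100%, which includes the share of the stretch). ERCC1 had 7.32-fold and ERCC2 4.37-fold, both nucleotide excision repair proteins, and XRCC1, a scaffold of single-strand break repair, 4.30-fold. SMG9, with 7.38-fold, is best known from nonsense-mediated mRNA decay.

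The list of nerve and muscle channels and receptors was mixed, with 11 of 20 (55.0%, interval 31.5 to 76.9). The interval includes the 66.8% of all protein-coding genes of the stretch. The list also holds genes of other tissues, ATP4A among them. KCTD15 led, and DMPK, the myotonic dystrophy kinase, had 7.60-fold. ATP4A, the gastric proton pump, CHST8, GPR4, GRIK5, MAG, a myelin glycoprotein, and PRX, the myelin protein periaxin, were without a start peak.

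CEACAM and PSG genes had a peak in 3 of 21 cases (14.3%, interval 3.05 to 36.3), all weak, with 3.003-fold at PSG9, 2.69-fold at CEACAM19 and 2.47-fold at CEACAM1. Of all protein-coding genes of the stretch 66.8% had a peak. None of 6 CYP2 genes (interval 0 to 45.9%), 3 lambda interferons (0 to 70.8%), 6 galectins (0 to 45.9%) or 10 genes of lymphocytes, granulocytes, liver and epithelial secretions (0 to 30.8%) had one. The last list includes CD22 and CD79A of B cells and CLC, the Charcot-Leyden crystal galectin of eosinophils. Within the apolipoprotein cluster APOE had 5.36-fold and APOC1 4.80-fold, and APOC2 and APOC4 had no peak. Several of these families consist of near-identical copies, LGALS7 and LGALS7B among them, so their missing peaks carry the limit given for the PSG genes.

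**Figure D4:**
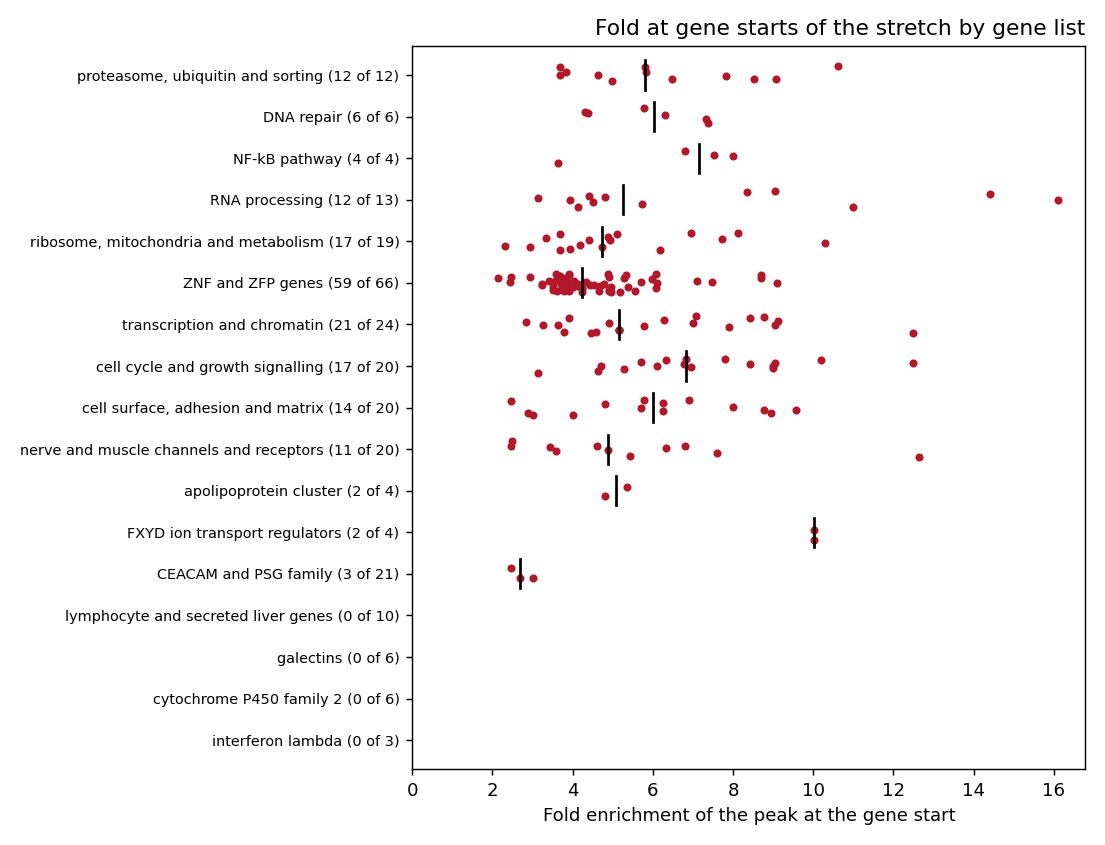
Deposited fold of the strongest peak at the gene start (horizontal axis) for each gene of the stretch in 17 gene lists (rows), with the number of members with a peak of all members beside each list's name. RNA processing reaches 16.1-fold in HNRNPL, CEACAM and PSG genes stay at or below 3.003-fold, and 4 lists have no point.

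Intervals without peaks were named after their lengths were seen. The widest gap of the stretch was 1270406 bp long, at chr19:29943279-31213684, and held all of ZNF536 and parts of URI1 and TSHZ3. The next, of 994539 bp, ran from TSHZ3 to ZNF507. Among the shorter ones, a gap of 581587 bp held CEACAM8 and 7 PSG genes, one of 419422 bp held CEACAM21, CEACAM4, CEACAM7, CEACAM5, CEACAM6 and CEACAM3, one of 363988 bp held 5 CYP2 genes and one of 292500 bp held LGALS13, LGALS16, LGALS14 and CLC. Typical spacing was like that of the sides, with a median gap of 17259 bp in the stretch, 16177 bp below it and 18928 bp above it.

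Zinc finger genes, taken by symbol (ZNF or ZFP with a number), had a start peak in 59 of 66 cases in the stretch (89.4%, interval 79.4 to 95.6) and in 152 of 185 in the rest (82.2%). Of all protein-coding genes, 66.8% had a peak in the stretch and 63.6% in the rest. The zinc finger genes had a median fold of 4.23 in the stretch and 4.86 in the rest. ZNF574 had the highest, 9.10-fold, then ZNF382 with 8.70-fold, ZNF792 with 7.47-fold and ZFP30 with 7.10-fold. The symbol rule also takes in ZFP36, an mRNA-destabilising protein that is no KRAB zinc finger. Whether the other members, ZNF574 among them, have a KRAB domain was not checked.

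The zinc finger genes of the stretch also carried peaks inside the gene. There were 25 pairs of gene and inside peak in 17 zinc finger genes, of which 12 (48.0%, interval 27.8 to 68.7) had the peak within 5000 bp of the gene's 3′ end, where these genes usually keep the exon with the finger array. For other genes of the stretch it was 23 of 93 pairs (24.7%, interval 16.4 to 34.8), and for zinc finger genes of the rest 6 of 21 (28.6%, interval 11.3 to 52.2). The intervals overlapped. Their folds were low, with a median of 3.07 in the stretch and 4.497 in the rest, and their median backgrounds were 8.41 and 4.004. Of them 4 were at least 5000 bp wide in the stretch and 0 in the rest. The widest were the peak of ZNF283 at chr19:43844333-43853001, 8669 bp with 4.49-fold, and that at the 3′ end of ZNF404 at chr19:43868151-43876379, 8229 bp with 4.66-fold. These positions were chosen after their values were seen.

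Outside zinc finger genes, the widest peaks lay at ACTN4, AXL and BCL3. ACTN4, an actin cross-linking protein, carried 5 peaks. The one at its start was the widest of the stretch, 14349 bp at chr19:38646933-38661281 with 5.72-fold, and others inside the gene measured 8701 bp with 7.67-fold and 5951 bp with 3.77-fold. AXL carried 12378 bp at chr19:41218388-41230765 and BCL3 9315 bp at chr19:44740466-44749780. Inside SIPA1L3, a regulator of Rap GTPases, lay a peak of 8775 bp with 8.47-fold. CIC carried 8633 bp, SMG9 7906 bp, C19orf33 6351 bp, and COQ8B, a coenzyme Q kinase, shared 6273 bp with ITPKC, an inositol phosphate kinase. PLEKHF1, an endosomal protein, carried 5326 bp and NFKBID 5113 bp. Width and fold did not go together at the top. HNRNPL, DMWD and HNRNPUL1, the 3 strongest, measured 1567, 878 and 2006 bp.

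Promoter composition went with the presence of a peak. RefSeq promoter windows were given for 323 genes of the stretch, 437 windows in all. The 269 windows that a peak overlapped had a median of 25 CpG dinucleotides (quartiles 19 and 31), against 9 (5 and 19) in the 168 windows without one. In the rest of the chromosome these medians were 27 and 11. At least 15 CpG were found in 87.7% of the stretch's windows with a peak and in 36.9% of those without. The share of windows with a peak in the stretch was 10.9% (interval 3.62 to 23.6) at 0 to 4 CpG, 11.1% at 5 to 9, 56.4% at 10 to 14, 61.0% at 15 to 19, 86.0% (79.2 to 91.2) at 20 to 29 and 80.2% (70.8 to 87.6) at 30 to 59. In the rest it was 67.1% (61.3 to 72.6) at 20 to 29 CpG and 85.5% (81.0 to 89.3) at 30 to 59. The intervals of stretch and rest did not overlap at 20 to 29 CpG, and did in the other classes. Windows of 1 gene share its sequence in part and are not independent.

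**Figure D5:**
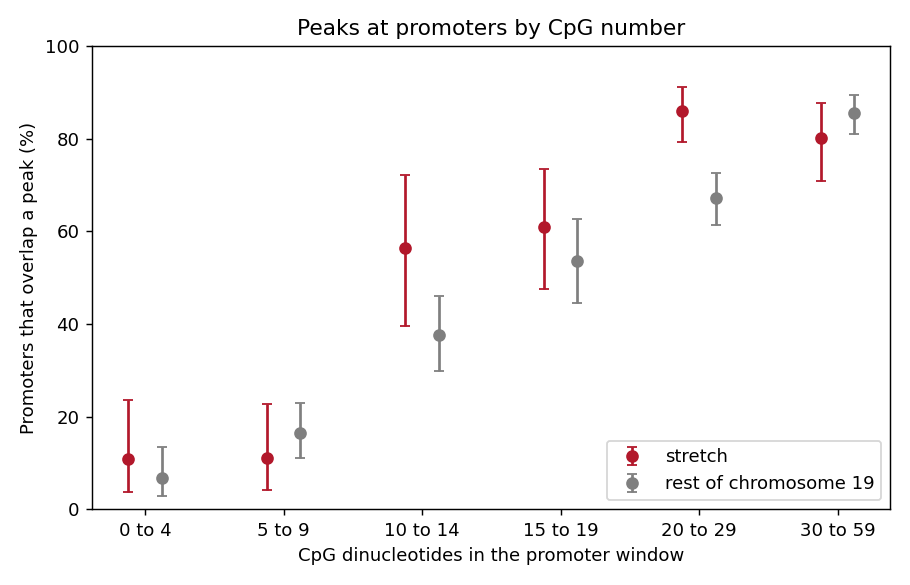
Share of RefSeq promoter windows that overlap a peak (vertical axis, percent) by the number of CpG dinucleotides in the window (horizontal axis), for the stretch and for the rest of chromosome 19, with exact 95% binomial intervals as bars. The share in the stretch is 10.9% at 0 to 4 CpG and 86.0% at 20 to 29 CpG.

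Median CpG number was 3 in CEACAM and PSG windows, 2 in CYP2 windows, 5 in galectin windows and 1.5 in lambda interferon windows, and 23.5 in those of RNA processing genes and 20 in those of zinc finger genes. Low CpG number and the lack of a peak did not always go together. The apolipoprotein windows had a median of 8.5 CpG, and 4 of 6 overlapped a peak. A CYP2 window with 29 CpG overlapped none. The windows were also searched on both strands for short motifs. GGGCGG, the GC box that Sp1 factors bind, was in 70.3% of the stretch's windows with a peak and 48.2% of those without, and in 56.3% of all promoter windows of the genome. CCGGAAG, an ETS motif, was in 18.6% with a peak and 7.14% without, against 12.8% of all. TATAAA, the TATA box, was in 1.49% with a peak and 10.1% without, against 9.47% of all. Among all windows of the genome with a peak, the GC box was in 74.9%, the ETS motif in 18.8% and the TATA box in 4.54%. In windows with a peak of the rest of chromosome 19 these shares were 82.4%, 24.4% and 5.85%. The GC box holds a CpG itself. A match says only that the letters are there. The printed HNRNPL, HNRNPUL1, DMWD, ERF, AXL and SYMPK windows all hold the GC box, and CYP2A6 holds the TATA box.

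The long noncoding RNA gene CEACAM16-AS1, named after its values were seen, had a peak of 7.66-fold over 2367 bp at chr19:44717363-44719729, apart from any protein-coding start.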

How the data were processed

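Chromatin of H1299 cells was precipitated with anti-H3K18la and sequenced. The submitters' processing notes name bcl2fastq 2.17, cutadapt 1.18, Trimmomatic 0.38, Bowtie2 2.3.4.1, Picard, MACS2 (2.1.2 and 2.1.0), ChIPseeker and hg38. The deposited list gives each broad peak, per its MACS2 format, a fold enrichment (a ratio to the caller's local background), a −log10 p, a −log10 q and a score. These deposited scores were not used. Caller settings and library depth are not given in the sources used here. The series text speaks of IgG and the sample labels of input, so the control is not settled. Fold is an average over the length of a broad peak.

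Peaks were set against 19880 protein-coding genes of RefSeq (GRCh38.p14) with Python 3.11.15, pandas 2.3.3 and scipy 1.17.1. The overlap was 1 bp or more. Gene starts came from the RefSeq promoter windows. Exons and untranslated regions were not assigned. The solving step was checked on values computed from the same Poisson relation. That check cannot show whether the relation holds for values averaged over a broad peak. Named genes were the 20 of highest fold and the 10 with the widest peak at the start, up to 6 members with and 6 without a peak per list, and genes at the borders; some of these are not reported here. Members and lists were chosen with earlier results of these data known. Alternatives were other borders, windows, significance limits and sides of the chromosome.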

Additional observations from a re-analysis of the deposited data

How the results depend on the processing

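Of 199 values recomputed under an alternative, 183 were counted as unchanged, 13 as moved and 3 as changed in sign. Medians and shares of the stretch were judged by their intervals, and their differences from the rest by the size of those intervals. Counts of gene list members, peaks per Mb and ratios of −log10 p were judged by a fixed factor, not by an error. The difference in peaks per Mb was judged by its sign alone. Set against the side below alone, the stretch had 0.5416 more peaks per Mb, where the difference from the whole rest was -0.3261, and the difference in the share of genes with a peak was -3.663 percentage points, where it was 3.22 from the whole rest. Against the side above alone its share of peaks of at least 10-fold was 0.2225 points higher and its share of genes with a peak 12.82 points higher. The difference in background was 5.519 against the side below and 7.437 against the side above. With −log10 q of at least 5, the stretch and the rest had median folds of 4.717 and 5.585, widths of 1628 and 1348 bp and backgrounds of 11.81 and 5.206, a difference of 6.609, and 1 CEACAM or PSG gene had a peak. With borders at 30 and 45 Mb, 7 RNA processing and 3 DNA repair genes had a peak, because members lie outside. Counting a peak anywhere in the gene gave 74.73% of genes in the stretch and 69.19% in the rest, and 4 FXYD genes. With no unit added the backgrounds were 12.77 and 6.657.

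Moving the upper border to the step was chosen after seeing the data. No paired analysis was possible because each group holds 1 library. The spread between libraries, the depth and the control are unknown, reads at near-identical copies were not examined, and starts were not given for 45 genes of the stretch.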
